A study of Mus musculus with 15 samples.

Results

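Among the genes counted in mouse colonic crypts, 7 make up the thyroid hormone set described here: the deiodinases Dio2 and Dio1, the receptors Thra and Thrb, their partner Rxra, and Thrsp and Hr, 2 genes known for their response to the hormone. They were chosen by symbol, and each matched 1 of the 32939 genes in the deposited table. The choice was made with results of the same samples in view. Dio2 was already known to be high in FL-shGFP against NL-shGFP, and the values behind the choice of the other 6 are not recorded. All 7 are therefore described without a test in that comparison, and Dio2 without a test in every comparison. The other comparisons reuse groups of that comparison, so p-values of members there may depend on the choice as well.

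Thyroid hormone leaves the gland mainly as thyroxine (T4), a prohormone, and is converted inside tissues to triiodothyronine (T3), the form that binds the nuclear receptors well. Deiodinases are selenoenzymes: the type 2 enzyme, Dio2, activates T4 within the cell, the type 1 enzyme, Dio1, can activate or clear the hormone, and the type 3 enzyme, Dio3, inactivates it. The receptors TR alpha (Thra) and TR beta (Thrb) sit on DNA, usually beside a retinoid X receptor, and exchange corepressors for coactivators when T3 binds. In the gut, T3 is known for driving the maturation of the epithelium, and TR alpha is the receptor most studied in crypt progenitors.

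The 15 libraries came from colonic crypts of wild-type mice, 5 samples in each of 3 groups, and every mouse carried an AAV that delivers a short hairpin RNA. NL-shGFP received a normal diet and had a normal liver with the control hairpin (AAV-shGFP), FL-shGFP received a CDAA diet and had a fatty liver with the same control hairpin, and FL-shAlpl received the CDAA diet and had a fatty liver with a hairpin against Alpl (AAV-shAlpl). Diet and liver state changed together, AAV-shAlpl was not given on the normal diet in these samples, and the labels give neither the age or sex of the mice nor the cells the vector reached, nor whether replicates are separate animals. The tests use the spread between the deposited samples, which may in part be technical.

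The library labels were checked on Alpl, which encodes tissue-nonspecific alkaline phosphatase: it had 0 to 2 counts in NL-shGFP, 14 to 25 in FL-shGFP and 0 to 6 in FL-shAlpl. Library totals ran from 33.3 to 58.6 M counts. The epithelial markers Epcam, Cdh1, Krt8, Krt18, Vil1 and Cdx2 summed to 4670 CPM (counts scaled to library size with TMM factors) or more in every sample. Mitochondrially encoded genes took 28 to 37.5% of counts in NL-shGFP, 13.7 to 21.5% in FL-shGFP and 14.8 to 24.3% in FL-shAlpl. Genes called by edgeR at an adjusted p below 0.05 were 46.7% of 17404 tested in FL-shGFP against NL-shGFP (4376 higher, 3752 lower; 4521 and 2347 when scaled by library totals alone). They were 36% in FL-shAlpl against FL-shGFP (3141 higher, 3120 lower), and 17.4% in FL-shAlpl against NL-shGFP (1621 higher, 1414 lower; 2783 and 930 by totals alone). Each comparison shares a group with the other pair, so their values are not independent. In RNA from bulk crypts, fewer cells of a type and less RNA per cell cannot be told apart.

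The deiodinase genes differ in the DNA just before their start sites, and both stretches are shown as a description. Each line gives the 250 bases before the RefSeq start (build GRCm38.p6, minus strand), with a match to the cAMP response element TGACGTCA in capitals.
Dio2, chr12:90739039-90739288: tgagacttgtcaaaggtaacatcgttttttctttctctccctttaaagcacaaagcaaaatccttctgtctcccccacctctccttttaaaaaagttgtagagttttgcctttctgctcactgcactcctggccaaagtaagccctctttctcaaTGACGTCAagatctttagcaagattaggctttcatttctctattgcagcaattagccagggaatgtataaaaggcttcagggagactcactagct
Dio1, chr4:107307169-107307418: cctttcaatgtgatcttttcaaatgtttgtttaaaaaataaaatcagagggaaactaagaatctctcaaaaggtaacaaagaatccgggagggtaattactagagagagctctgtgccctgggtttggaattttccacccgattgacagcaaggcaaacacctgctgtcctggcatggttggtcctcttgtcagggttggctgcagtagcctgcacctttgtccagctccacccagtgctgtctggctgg
The Dio2 stretch holds 1 TGACGTCA, starting 95 bases before the start site, and 1.55% of the 32851 promoters in the table hold that motif on either strand. Dio1 holds none. AGGTCA, the half-site of many nuclear receptors, is in neither stretch and in 14% of all promoters, and 2 copies of it in a row, 4 bases apart, the direct repeat that T3 receptors bind, are in none of the member promoters and in 0.0152% of all. Of the 7 members, 5 matched this table, and Thra and Hr did not. AGGTCA occurred once in 1 of 2 Thrb promoters and 2 times in 1 of 2 Rxra promoters. A match of letters is a description and not a measured binding site.

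Dio2 RNA was close to the detection floor in normal-liver crypts and well above it in fatty-liver crypts that received the control hairpin. NL-shGFP replicates 1 to 5 had 4, 6, 0, 2 and 4 Dio2 counts. The FL-shGFP replicates had 196, 63, 319, 945 and 278, and those of FL-shAlpl 16, 40, 7, 18 and 16. Every FL-shGFP sample lay above every sample of both other groups, while NL-shGFP and FL-shAlpl met at their edges, at 0.15 and 0.133 CPM. NL-shGFP averaged 0.0872 ± 0.0601 CPM, FL-shGFP 9.06 ± 10.8 and FL-shAlpl 0.374 ± 0.207 (SD, n = 5). FL-shGFP replicate 4 stood apart at 28.1 CPM against 1.28 to 6.43 in the other 4.

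The fitted difference of Dio2 in FL-shGFP against NL-shGFP was 6.61 ± 0.88 on the log2 scale (± standard error, edgeR), and since NL-shGFP had 16 counts in all, with 1 sample at 0, its size is uncertain and no fold is given. Without FL-shGFP replicate 4 it was 5.54. FL-shAlpl against FL-shGFP gave -4.58 ± 0.74, a 24-fold lower level, and -3.51 without FL-shGFP replicate 4. FL-shAlpl against NL-shGFP gave 2.03 ± 0.88. These values describe the gene that was chosen for them and carry no test. The antisense transcript Gm26512, which overlaps Dio2, had 10 counts over all 15 samples.

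**Figure D1:**
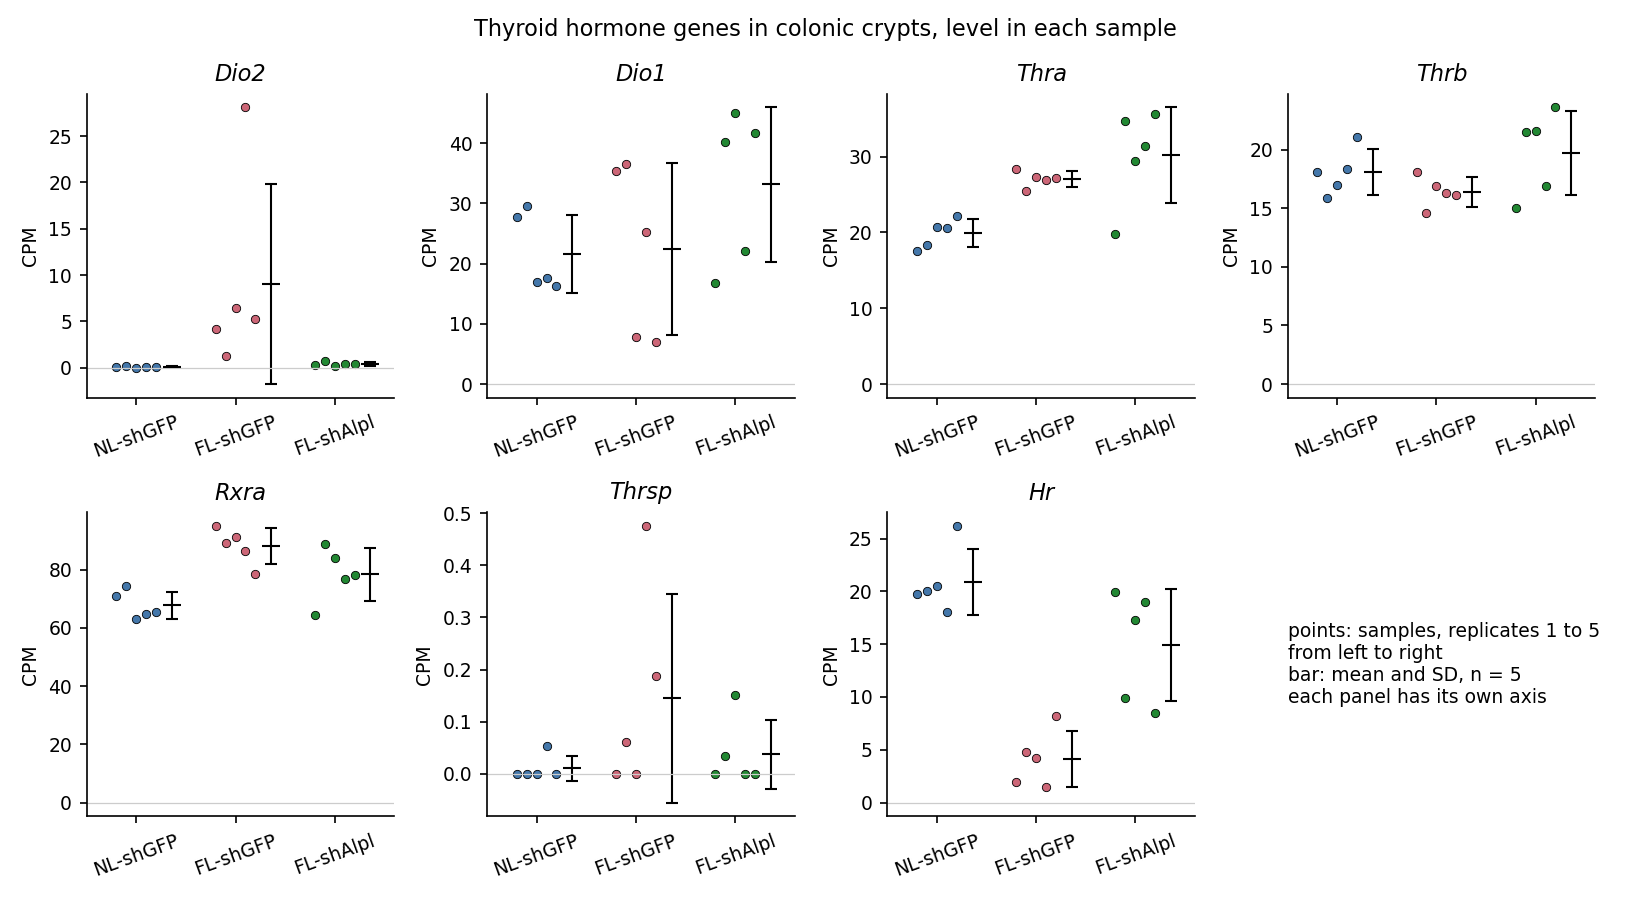
CPM of each member in each sample, with replicates 1 to 5 from left to right in each group and a bar for the mean and SD of 5 samples; every panel has its own axis. Dio2 is high only in FL-shGFP among these groups, where replicate 4 reaches 28.1 CPM, and Hr is low there, while Thrb and Dio1 overlap between all groups.

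Markers of several other cell types were also highest in FL-shGFP, and their part in the Dio2 values was not tested. The 5 fibroblast markers (Dcn, Col1a1, Col1a2, Col3a1, Pdgfra) summed to 8.08 to 54.5 CPM (NL-shGFP), 53.5 to 333 (FL-shGFP) and 18.6 to 287 (FL-shAlpl). Of the 5, 2 passed as higher in FL-shGFP than in NL-shGFP, beside 25.1% of all genes. Within FL-shGFP the sample with the most fibroblast RNA, replicate 4 at 333 CPM, held the most Dio2, and the sample with the least, replicate 2 at 53.5 CPM, held the least. In FL-shAlpl, replicate 5 had 287 CPM of fibroblast markers and 0.396 CPM of Dio2, and replicate 2 had 45.5 and 0.693 CPM. The 5 T and NK cell markers summed to 5.18 to 17.6, 30.8 to 87.9 and 3.98 to 8.78 CPM in NL-shGFP, FL-shGFP and FL-shAlpl. The 5 myeloid markers reached 448 CPM in FL-shGFP replicate 4 against 139 to 250 in the rest of that group. They overlapped with 75.5 to 205 CPM in NL-shGFP and 52.3 to 235 in FL-shAlpl. The 5 smooth muscle markers (Myh11, Acta2, Des, Actg2, Cnn1) summed to 0.922 to 2.64 CPM (NL-shGFP), 3.55 to 20.3 (FL-shGFP) and 1.48 to 2.89 (FL-shAlpl). Within FL-shGFP, replicate 4 had the most smooth muscle RNA at 20.3 CPM, and replicate 3, with 6.43 CPM of Dio2, the least at 3.55. The 6 surface colonocyte markers ran from 736 to 2060, 3010 to 8890 and 1300 to 3320 CPM. Brown fat is a well-known site of Dio2, and the 4 fat cell markers (Cidec, Ucp1, Adipoq, Plin1) summed to 1.31 to 3.01, 10.3 to 19.4 and 2.36 to 8.65 CPM in the same order of groups. Nearly all of this was Cidec, a lipid droplet gene and the one of the 4 that could be tested, which was higher in FL-shGFP than in NL-shGFP (2.76 ± 0.32, edgeR adjusted p = 2.51e-05) and lower in FL-shAlpl than in FL-shGFP (-1.48 ± 0.30, edgeR adjusted p = 0.0023). Ucp1 averaged 0.0249, 0.142 and 0.049 CPM, Adipoq and Plin1 were below 0.1 CPM on average in all 3 groups, and Plin1 had no count in NL-shGFP.

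Dio1 RNA was present in all 3 groups at overlapping levels, with a spread between samples too wide to call the groups alike. Its levels were 27.8, 29.5, 16.9, 17.6 and 16.2 CPM in NL-shGFP replicates 1 to 5. FL-shGFP had 35.4, 36.5, 7.86, 25.2 and 7.06 CPM, and FL-shAlpl 16.7, 40.2, 45, 22.1 and 41.7. FL-shGFP replicates 3 and 5 were the lowest of all 15 samples, and the 3 groups overlapped. FL-shGFP against NL-shGFP gave 0.05 ± 0.43 on the log2 scale, a sign that turned when any of 5 samples was left out. Dio1 did not pass in FL-shAlpl against FL-shGFP (0.56 ± 0.43, edgeR adjusted p = 0.325) or against NL-shGFP (0.62 ± 0.43, edgeR adjusted p = 0.363).

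Per gene length, in FPKM, which divides counts by gene length and library total and so compares genes, Dio1 exceeded Dio2 in all 15 samples, but by very different factors. The ratio of Dio1 to Dio2 FPKM was 419 to 980 in the 4 NL-shGFP samples with a Dio2 count, 2.65 to 84.3 in FL-shGFP and 171 to 1000 in FL-shAlpl. FL-shGFP replicates 3, 4 and 5 had the lowest ratios, 3.61, 2.65 and 3.98. Dio3, the inactivating deiodinase, was too low to be tested, with 8 counts over NL-shGFP, 78 over FL-shGFP and 32 over FL-shAlpl. It is named for its role, and its highest level in any sample was 0.524 CPM.

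Thra was the more abundant of the 2 receptor genes and was higher in both fatty-liver groups than in NL-shGFP, whereas Thrb stayed within overlapping ranges. Thra had 17.6, 18.4, 20.7, 20.6 and 22.1 CPM in NL-shGFP replicates 1 to 5. FL-shGFP had 28.4, 25.4, 27.3, 26.9 and 27.2 CPM, and FL-shAlpl 19.8, 34.7, 29.4, 31.4 and 35.6. All FL-shGFP samples lay above all NL-shGFP samples, and FL-shAlpl replicate 1 alone in its group fell into the NL-shGFP range. The difference in FL-shGFP against NL-shGFP was 0.44 ± 0.13 on the log2 scale, a description only. Thra rose in FL-shAlpl over NL-shGFP by 0.60 ± 0.13 (edgeR adjusted p = 0.00589), and did not pass against FL-shGFP (0.16 ± 0.13, edgeR adjusted p = 0.358). Without FL-shAlpl replicate 1 the last value was 0.28 and passed (edgeR adjusted p = 0.0334).

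The Thra values carry a limit that the other members do not. The last exons of one Thra transcript form, TR alpha 2, which does not bind T3, overlap on the opposite strand with Nr1d1, the gene of the clock repressor REV-ERB alpha. No strand setting of the counting is given, so reads from the overlap cannot be assigned to either gene. Nr1d1 was named for this overlap after its values were seen. NL-shGFP averaged 5.07 ± 1.19 CPM of Nr1d1, FL-shGFP 37.4 ± 8.27 and FL-shAlpl 23.8 ± 10.9 (SD, n = 5), higher by 2.88 ± 0.29 and 2.23 ± 0.28 on the log2 scale in the fatty-liver groups than in NL-shGFP (edgeR adjusted p = 1.03e-05 and 0.000172). FL-shAlpl had more Thra and less Nr1d1 on average than FL-shGFP. How much of the Thra difference comes from Nr1d1 reads was not tested.

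Thrb ranged over the NL-shGFP samples from 15.9 to 21.1 CPM (median 18.1), over FL-shGFP from 14.6 to 18.1 (median 16.3) and over FL-shAlpl from 15 to 23.6 (median 21.5). The difference in FL-shGFP against NL-shGFP was -0.14 ± 0.13 on the log2 scale. It did not pass in FL-shAlpl against FL-shGFP (0.26 ± 0.13, edgeR adjusted p = 0.115) or against NL-shGFP (0.12 ± 0.13, edgeR adjusted p = 0.547). The first of these passed without FL-shAlpl replicate 1 (0.35, edgeR adjusted p = 0.0348), the sample in which Thra was lowest as well. The ratio of Thra to Thrb FPKM averaged 1.77 ± 0.152 (NL-shGFP), 2.65 ± 0.106 (FL-shGFP) and 2.46 ± 0.347 (FL-shAlpl; SD, n = 5). Every fatty-liver sample, at 2.12 or more, exceeded every NL-shGFP sample, at 1.95 or less, and the Nr1d1 overlap enters this ratio too.

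**Figure D2:**
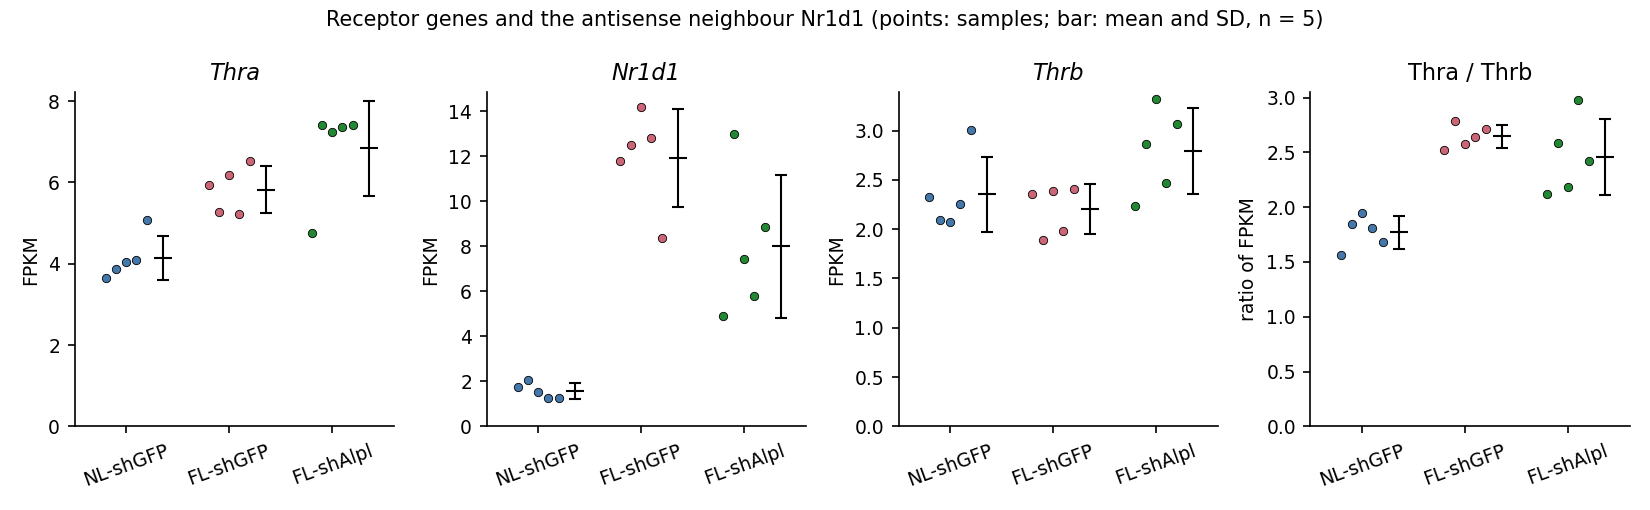
FPKM of Thra, of Nr1d1 on its opposite strand and of Thrb, and the ratio of Thra to Thrb FPKM, in each sample (points) with the mean and SD of 5 samples (bars). The ratio lies between 1.56 and 1.95 in NL-shGFP and between 2.12 and 2.98 in the fatty-liver groups, while Nr1d1 rises from at most 2.08 FPKM to at least 4.89.

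Rxra, the retinoid X receptor with which thyroid hormone receptors and many other nuclear receptors pair, was abundant and varied little. It had 71.1, 74.3, 63.0, 64.7 and 65.6 CPM in NL-shGFP replicates 1 to 5. FL-shGFP had 95.1, 89.2, 91.4, 86.4 and 78.6 CPM, and FL-shAlpl 64.5, 88.7, 84.1, 76.7 and 78.1. FL-shGFP lay wholly above NL-shGFP, by 0.38 ± 0.09 on the log2 scale as a description, and FL-shAlpl overlapped both groups. Rxra did not pass in FL-shAlpl against FL-shGFP (-0.17 ± 0.09, edgeR adjusted p = 0.159). Against NL-shGFP it did not pass either (0.21 ± 0.09, edgeR adjusted p = 0.121), although it did when scaled by library totals alone (0.34, edgeR adjusted p = 0.028) and without FL-shAlpl replicate 1 (0.27, edgeR adjusted p = 0.0302). The paralog Rxrb fell in FL-shGFP against NL-shGFP (-0.49 ± 0.13, edgeR adjusted p = 0.00588), and Rxrg was too low to be tested.

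Hr, the hairless corepressor that binds thyroid hormone and vitamin D receptors and whose gene responds to T3 in brain, had the opposite profile to Dio2. Its levels were 19.7, 20, 20.5, 18.0 and 26.2 CPM in NL-shGFP replicates 1 to 5. FL-shGFP had 1.98, 4.76, 4.25, 1.46 and 8.19 CPM, and FL-shAlpl 19.9, 9.92, 17.3, 19 and 8.46. Every FL-shGFP sample lay below every sample of the other groups, with the narrowest gap between 8.19 CPM in FL-shGFP replicate 5 and 8.46 CPM in FL-shAlpl replicate 5. FL-shGFP against NL-shGFP gave -2.33 ± 0.39 on the log2 scale, a 5.03-fold lower level, as a description. Hr rose in FL-shAlpl over FL-shGFP by 1.84 ± 0.38, a 3.59-fold higher level (edgeR adjusted p = 0.00264). The same FL-shGFP values may have entered the choice of Hr, so this p is not independent of the choice. Hr did not pass in FL-shAlpl against NL-shGFP (-0.48 ± 0.37, edgeR adjusted p = 0.404).

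FL-shGFP replicate 4, with the most Dio2, had the least Hr of all samples. In FL-shAlpl, replicates 2 and 5 had the most Dio2, 0.693 and 0.396 CPM, and the least Hr, 9.92 and 8.46 CPM. The order did not hold throughout: FL-shGFP replicate 2 had the least Dio2 of its group and only the second highest Hr. After group means were removed, the log2 CPM of Dio2 and Hr had a Pearson r of -0.49 over the 15 samples, given as a description without a test. The 5 crypt stem cell markers (Lgr5, Ascl2, Smoc2, Axin2, Ephb3) moved with Hr, at summed levels of 108 to 185 CPM (NL-shGFP), 13.9 to 42.7 (FL-shGFP) and 38.4 to 112 (FL-shAlpl), and their part in the Hr values was not tested. Hr is best known from skin, and the 6 squamous markers (Krt5, Krt14, Krt1, Krt10, Trp63, Dsg3) summed to 3.6 to 4.8 CPM (NL-shGFP), 4.95 to 9.49 (FL-shGFP) and 3.21 to 4.67 (FL-shAlpl). Of the 3 that could be tested, Krt14 and Dsg3 passed as higher in FL-shGFP than in NL-shGFP and lower in FL-shAlpl than in FL-shGFP, Krt10 passed in neither, and Krt1 and Trp63 were below 0.1 CPM on average in every group. The part of these markers in the Hr values was not tested.

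**Figure D3:**
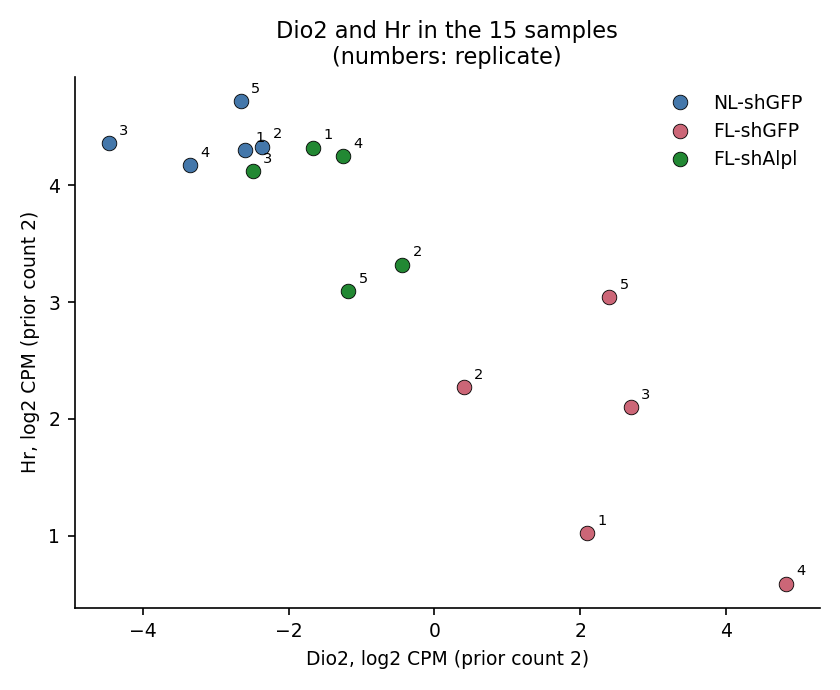
Dio2 against Hr in log2 CPM with a prior count of 2, 1 point per sample with its replicate number. FL-shGFP samples lie to the right and low, NL-shGFP samples to the left and high, and FL-shAlpl samples lie near NL-shGFP, with replicates 2 and 5 lower in Hr.

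Thrsp, a lipogenic gene induced by T3 in liver, was all but absent. It had 2 counts over the 5 NL-shGFP samples, 29 over FL-shGFP and 10 over FL-shAlpl, and only 6 of 15 samples had any. FL-shGFP replicates 4 and 5, with 16 and 10 counts, held most of them. Thrsp did not pass the filter on low counts and no fold change is given. Small counts in this table are mostly even, so a fragment appears to be counted as 2 and these are fewer molecules than they look.

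By mean FPKM the order in NL-shGFP was Dio1 (10.5 ± 3.22), Rxra (10.3 ± 1.05), Thra (4.14 ± 0.546), Hr (2.92 ± 0.632), Thrb (2.35 ± 0.386), Dio2 (0.0147 ± 0.0103) and Thrsp (0.00443 ± 0.00991). Neighbours in this order overlapped between samples, except that Rxra lay above Thra and Thrb above Dio2. In FL-shGFP, Dio2 at 1.48 ± 1.64 FPKM overlapped with Thrb at 2.20 ± 0.251 and with Hr at 0.615 ± 0.443. In FL-shAlpl, Dio2 was again below Hr in every sample, at 0.066 ± 0.0334 against 2.32 ± 0.945 FPKM.

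Counted as calls, 6 of the 7 members could be tested, Dio2 only through its counts in FL-shGFP. In FL-shGFP against NL-shGFP, 3 were called higher and 1 lower, beside 46.7% of all genes called, a count from which nothing is read because that comparison entered the choice. The same 4 had no overlap of CPM between the groups, as did 34.2% of all genes (18.1% above, 16.2% below). Dio2 is left out of the next counts, which may still depend on how the other members were chosen. In FL-shAlpl against FL-shGFP, Hr was called higher, 1 of the other 5 members beside 36% of all genes called, and it lay wholly above FL-shGFP, as did 7.63% of all genes (9.29% lay wholly below). In FL-shAlpl against NL-shGFP, Thra was called higher, 1 of the other 5 beside 17.4%, and 0 were free of overlap, against 7.54% of all genes above and 7.01% below. With Dio2 included, the median log2 fold change of the 6 was 0.22, 0.21 and 0.41 in these comparisons, and that of all genes tested was 0.00, 0.00 and 0.05.

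**Figure D4:**
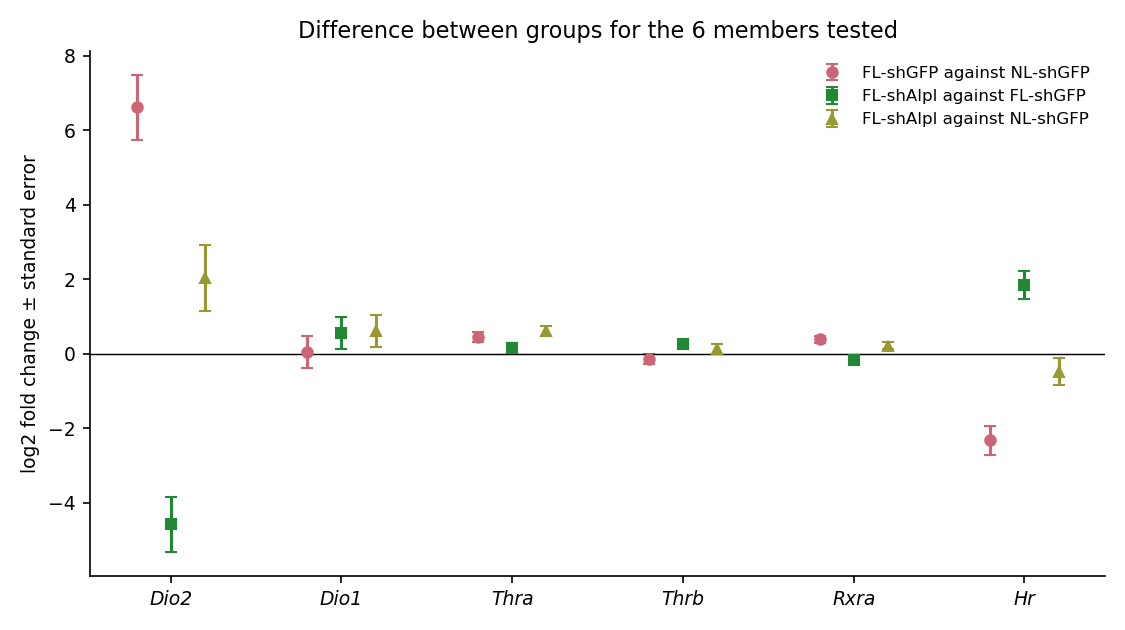
Log2 fold change with its standard error (edgeR) for the 6 members tested, in each of the 3 comparisons. In FL-shGFP against NL-shGFP, Dio2 is at 6.61 and Hr at -2.33, and in FL-shAlpl against FL-shGFP at -4.58 and 1.84, while the other 4 stay within 0.62 of 0 in all comparisons.

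The rest of the pathway was followed in 11 lists of 78 genes, of which 69 could be tested. The lists, like the members, were chosen with earlier results of these data known. Their counts and p-values may therefore depend on that choice in every comparison. In FL-shGFP against NL-shGFP, 30 of the 69 rose and 13 fell, beside 25.1% and 21.6% of all genes. In FL-shAlpl against FL-shGFP, 9 rose and 17 fell, beside 18% and 17.9%. In FL-shAlpl against NL-shGFP, 18 rose and 3 fell, beside 9.31% and 8.12%, but 8 rose without FL-shAlpl replicate 2 and 10 without NL-shGFP replicate 3 or 4. Scaled by library totals alone, the falls in the first and second of these were 6 and 11.

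Transporters that carry the hormone across the membrane went both ways. Of 8, 2 rose and 4 fell in FL-shGFP against NL-shGFP (median -0.63), beside 25.1% and 21.6% of all genes. Falls included Slco2b1 (-1.52 ± 0.20, edgeR adjusted p = 5.46e-05) and Slco4a1 (-0.98 ± 0.21, edgeR adjusted p = 0.00145). Slc3a2, the shared heavy chain of amino acid and hormone carriers, rose by 0.37 ± 0.08 (edgeR adjusted p = 0.00199). In FL-shAlpl, Slco2b1 rose over FL-shGFP (0.80 ± 0.20, edgeR adjusted p = 0.00675) and Slco1c1, a T4 carrier, fell (-1.43 ± 0.43, edgeR adjusted p = 0.0184), and Slco2b1 and Slco4a1 were both lower than in NL-shGFP (edgeR adjusted p = 0.0194 and 0.0035). Slco1c1 was close to the detection floor, averaging 0.38 CPM in FL-shGFP and 0.137 in FL-shAlpl.

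Genes that clear iodothyronines or salvage their iodide, or bind them, form the next list. Iyd, which recovers iodide from iodotyrosines, averaged 1.83 ± 0.387 CPM over the NL-shGFP samples, 20.2 ± 7.57 over FL-shGFP and 6.54 ± 3.37 over FL-shAlpl (SD, n = 5), with no overlap between any pair of these groups. It rose by 3.47 ± 0.38 on going from NL-shGFP to FL-shGFP (edgeR adjusted p = 1.87e-05) and fell by 1.63 ± 0.35 in FL-shAlpl against FL-shGFP (edgeR adjusted p = 0.00313). The glucuronidating enzyme gene Ugt1a1 and the sulfotransferase gene Sult1b1 were higher in FL-shGFP (1.72 ± 0.30 and 1.65 ± 0.32, edgeR adjusted p = 0.000453 and 0.000954), and Ugt1a1, whose exons are partly shared with other Ugt1a genes, fell again in FL-shAlpl (-1.88 ± 0.30, edgeR adjusted p = 0.000545). The other sulfotransferase gene of this list, Sult1a1, fell in FL-shGFP against NL-shGFP (-1.42 ± 0.31, edgeR adjusted p = 0.00215). Sult1a1 averaged 258 ± 42.7 CPM in NL-shGFP and 96.8 ± 40.7 in FL-shGFP (SD, n = 5). Of the 6 tested genes of this list, 3 rose and 1 fell, 0 and 2, and 3 and 0 in the 3 comparisons as ordered above. The shares of all genes called higher and lower were 25.1% and 21.6%, 18% and 17.9%, and 9.31% and 8.12%.

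Among genes known to act on Dio2, Creb1, a factor that binds cAMP response elements, fell slightly in FL-shGFP against NL-shGFP (-0.34 ± 0.13, edgeR adjusted p = 0.0361). Of 5 genes of Dio2 protein turnover, 2 rose and 1 fell in FL-shGFP against NL-shGFP, beside 25.1% and 21.6% of all genes. March6 and Wsb1, which encode ubiquitin ligase components that turn over Dio2 protein, rose by 0.46 ± 0.09 and 0.39 ± 0.15 (edgeR adjusted p = 0.00105 and 0.0476). Ube2g2 fell (-0.28 ± 0.11, edgeR adjusted p = 0.043). In FL-shAlpl against FL-shGFP, 1 of the 5 rose and 2 fell, beside 18% and 17.9%. Usp33 rose (0.29 ± 0.10, edgeR adjusted p = 0.0324), and March6 and Wsb1 fell (-0.33 ± 0.09 and -0.61 ± 0.15, edgeR adjusted p = 0.0121 and 0.00727). Of 6 genes that place selenocysteine in deiodinases and other selenoproteins, 0 rose and 2 fell in FL-shGFP against NL-shGFP, beside 25.1% and 21.6% of all genes. In FL-shAlpl against FL-shGFP 4 rose and 0 fell, beside 18% and 17.9%, and those that rose included Pstk (1.01 ± 0.20, edgeR adjusted p = 0.00188).

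Of 8 coactivator genes, 6 rose and 0 fell in FL-shGFP against NL-shGFP (median 0.34), where 25.1% of all genes were called higher and 21.6% lower, shares that stand beside the next counts too. The 6 that rose included Ep300 (0.41 ± 0.08, edgeR adjusted p = 0.000934) and Ppargc1a (1.02 ± 0.25, edgeR adjusted p = 0.00431). Of 6 corepressor genes, 1 rose and 1 fell (median -0.03), and Ncor1, the main corepressor of unliganded receptors, did not pass (-0.09 ± 0.11, edgeR adjusted p = 0.516). Of 11 tested receptors that share the RXR partner, 5 rose and 1 fell, with the bile acid receptor Nr1h4 (1.15 ± 0.12, edgeR adjusted p = 1.29e-05) and the xenobiotic receptors Nr1i2 (1.02 ± 0.15, edgeR adjusted p = 0.00012) and Nr1i3 (3.77 ± 0.59, edgeR adjusted p = 0.000191). Nr1i3 was low, averaging 0.111 CPM in NL-shGFP and 1.57 in FL-shGFP, so the size of its difference is uncertain. In FL-shAlpl against FL-shGFP, 0 of these receptors rose and 3 fell, where 18% of all genes were called higher and 17.9% lower. Nr1h4 changed by -0.99 ± 0.12 (edgeR adjusted p = 9.58e-05).

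Of 12 other genes known to respond to T3, 8 rose and 0 fell in FL-shGFP against NL-shGFP (median 0.85), beside 25.1% of all genes higher. This list too was chosen with earlier results known. The sodium-proton exchanger gene Slc9a3 (4.05 ± 0.43, edgeR adjusted p = 1.58e-05) and the intestinal alkaline phosphatase gene Alpi (2.15 ± 0.30, edgeR adjusted p = 8.89e-05) passed with the smallest p. In FL-shAlpl against FL-shGFP 0 rose and 4 fell (median -0.31), beside 18% and 17.9% of all genes. Those that fell included Slc9a3 (-2.53 ± 0.40, edgeR adjusted p = 0.000522) and Alpi (-1.42 ± 0.29, edgeR adjusted p = 0.00246). Against NL-shGFP 6 rose and 0 fell in FL-shAlpl (median 0.54), beside 9.31% and 8.12% of all genes. Klf9, the T3 target shared by most tissues and named here after its values were seen, rose in FL-shGFP (0.94 ± 0.18, edgeR adjusted p = 0.000953) and in FL-shAlpl (0.65 ± 0.18, edgeR adjusted p = 0.0247) over NL-shGFP, and the FL-shAlpl difference from FL-shGFP did not pass (-0.30 ± 0.18, edgeR adjusted p = 0.217). Slc9a3 and Alpi are also genes of mature colonocytes, and the surface colonocyte markers moved with them. Of these 6 markers, 5 were higher in FL-shGFP than in NL-shGFP, beside 25.1% of all genes. In FL-shAlpl against FL-shGFP, 4 of the 6 markers were lower, beside 17.9%. Their part in these values was not tested, and Klf9 also answers to glucocorticoids.

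**Figure D5:**
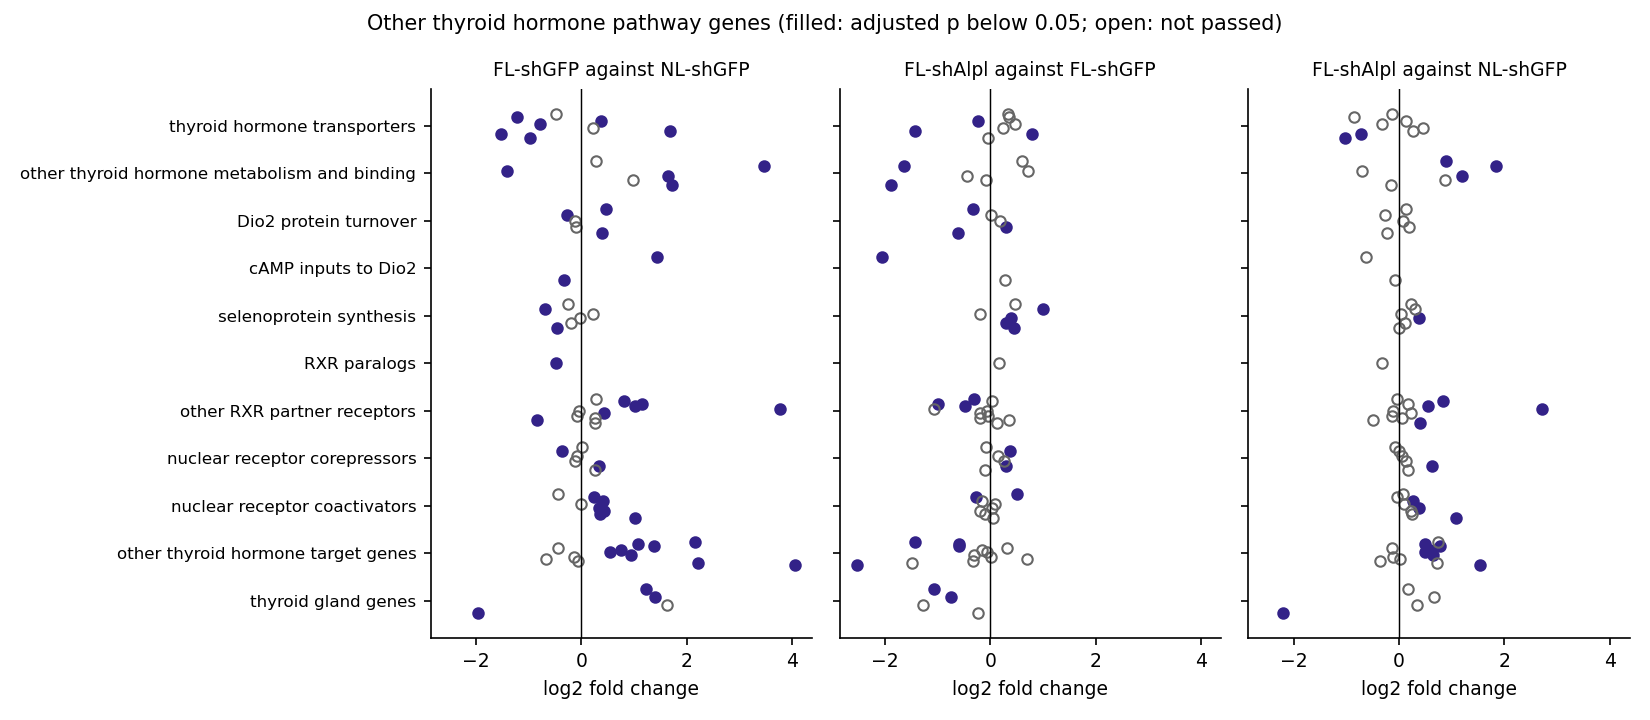
Log2 fold change (horizontal axis) of each tested gene of the 11 pathway lists, in the 3 comparisons; filled points passed an adjusted p of 0.05 (edgeR) and open points did not. The other thyroid hormone target genes lie mostly to the right in FL-shGFP against NL-shGFP, where 8 of 12 passed, and to the left in FL-shAlpl against FL-shGFP, where 4 passed.

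Genes of the thyroid gland itself served as a check on tissue. Of 7 such genes 4 could be tested. The thyroglobulin gene Tg was too low, averaging 0.33 CPM over FL-shGFP, 0.0594 over FL-shAlpl and 0.045 over NL-shGFP, and the thyrotropin receptor gene Tshr had no count in NL-shGFP or FL-shAlpl. The oxidase gene Duox2 and its partner Duoxa2, known in colon as well, rose from NL-shGFP to FL-shGFP (1.22 ± 0.20 and 1.40 ± 0.24, edgeR adjusted p = 0.00023 and 0.000356). The iodide transporter gene Slc5a5 fell (-1.97 ± 0.58, edgeR adjusted p = 0.0114) and stayed lower in FL-shAlpl than in NL-shGFP (-2.20 ± 0.58, edgeR adjusted p = 0.0167).

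The genes with the profiles most like Dio2 over the 15 samples, by Pearson correlation of log2 CPM, were Bmper and Saa3 (both 0.96), Tmem119 and Tax1bp1 (both 0.95) and Chil3 (0.94). Once group means were removed, they were Serpine2 (0.86), Spp1 (0.85), and Trim24, Saa3 and Rab11fip2 (all 0.79). For Hr they were Hspe1, Ncbp2, Twnk, Fkbp4 and Pex10 (all 0.98), and without group means Ddx11, Lmnb2, Pex10 and Ncbp2 (all 0.95) and Twnk (0.94). Samples share library, depth and group, so these values describe likeness only.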

How the data were processed

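RNA of colonic crypts was sequenced in 15 samples, and the authors deposited 2 tables of 32939 genes, one of counts and one of FPKM. The submitters' processing notes name HISAT2 as a tool, while for the counting tool, genome build, gene annotation and strand setting no entry was found (not given in the sources used here). Dividing the deposited counts by library total and 1 constant for each gene gave the deposited FPKM (to a relative 0.0001) in all 28476 genes compared. Counts from 1 to 12 were even in 72.4 to 77.2% of cases. Symbols matched 32241 genes, with Marchf6 listed as March6. No value column was left unused (0).

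The quasi-likelihood test of edgeR 4.0.16 in R 4.3.3, robust and with TMM scaling, estimated 3 group means from all 15 samples for the 17404 genes kept by filterByExpr; 15535 were not tested. Tests were two-sided with Benjamini-Hochberg adjustment over all genes tested, at 0.05. The members and lists were chosen with earlier results of these data known. Named genes are the 7 members, up to 3 passing genes of each list by p with the most abundant one that did not pass, Alpl, and the 5 genes most alike each member with at least 1 mean CPM; the text prints part of them, and some are not reported here. Of 30 pairs of samples within groups, 0 agreed within sampling noise (closest 1.74 times that noise, NL-shGFP replicates 3 and 4), so all samples were kept separate. NL-shGFP replicates 1 and 2 were at 3.14, and pairs of NL-shGFP replicate 5 with the others at 16.1 to 17.7. NL-shGFP may hold fewer than 5 independent samples, which was not tested. Alternatives were other scalings, no filter, DESeq2 1.42.0, only the 2 groups compared, a replicate block, close NL-shGFP libraries summed, no mitochondrially encoded genes and each sample left out. The code was tested on simulated data. Figures used Python 3.11.15 and matplotlib 3.10.9. Protein sequences were not used here.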

Additional observations from a re-analysis of the deposited data

Results flagged for a closer look

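Of 24 sets of 5 samples tested (the 7 members and Alpl in 3 groups), 4 had 1 sample farther from the rest than Dixon's critical value of 0.71 of the range. Chance gives about 1 in 20 for normally distributed values, which these need not be. A set with 1 sample above 0 and the rest at 0 always exceeds the critical value. The 4 of 24 are therefore not set against that rate. Dio2 in FL-shGFP replicate 4 was 28.1 CPM, against 1.28 to 6.43 in the other 4. Thrsp in NL-shGFP replicate 4 was 0.053 CPM against 0 in the rest, and in FL-shAlpl replicate 3 it was 0.152 CPM against at most 0.0346. Alpl in NL-shGFP replicate 2 was 0.0499 CPM against 0 in the rest. The last 3 rest on 2 to 8 counts.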

How the results depend on the processing

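Of the values of single members under the alternatives, 400 kept their direction and side of the threshold, 6 passed where the reported value did not, 1 no longer passed and 6 changed sign. All 6 were Dio1 in FL-shGFP against NL-shGFP, reported at 0.05: -0.04 with the replicate block, and with 1 sample left out -0.20 to 0.28 (-0.03, -0.02 and -0.04 without NL-shGFP replicates 3, 4 and 5, -0.18 and -0.20 without FL-shGFP replicates 1 and 2). The cause was not tested.

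Scaling by library totals alone moved the median of all genes to 0.05, 0.08 and 0.19 in the 3 comparisons. It left 2347 genes and 6 pathway genes lower in FL-shGFP against NL-shGFP, 11 pathway genes lower in FL-shAlpl against FL-shGFP (also 11 with no filter), and 2783 genes higher, 930 lower and 2 members higher in FL-shAlpl against NL-shGFP (2 members with DESeq2 as well, Dio2 being 1 of them). Fitting only the groups compared gave 2001 genes higher in FL-shAlpl against FL-shGFP. Summing NL-shGFP replicates 1 and 2, and 3 and 4, gave 637 genes higher, 703 lower and 8 pathway genes higher in FL-shAlpl against NL-shGFP.

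With 1 sample left out, members called higher in FL-shAlpl against FL-shGFP ran from 1 to 3 (3 without FL-shAlpl replicate 1). In FL-shAlpl against NL-shGFP members higher ran from 1 to 2 (2 without FL-shGFP replicate 4, Dio2 being 1 of them, or FL-shAlpl replicate 1), pathway genes higher from 8 (without FL-shAlpl replicate 2; 10 without NL-shGFP replicate 3 or 4) to 20, and genes higher from 868 (without FL-shAlpl replicate 2) to 1978.

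Whether equal replicate numbers pair the samples was not settled, and the values were mixed. Of 15 same-numbered pairs, 3 deviated together at r above 0.1 (from -0.353 to 0.326). The best match among the 5 samples of another group had the same number in 13 of 30 cases. With the block, the counts higher and lower were 4004 and 3291, 2425 and 2649, and 1237 and 1220. Keeping all 15 samples separate was the reported analysis itself. Dio2 in NL-shGFP and Thrsp in all groups rest on few counts, and Thra carries the Nr1d1 overlap.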
